A study of Homo sapiens with 12 samples.

Results

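LRAT and 8 other genes that carry, convert or sense retinoids were followed through 12 RNA-seq libraries of EndoC-βH1 cells, 9 genes of the 21508 listed above 0 in at least 1 library. LRAT was selected on its measured rise with 1-AKP, so its values in the comparisons of 1-AKP with DMSO are a description and carry no test. The other members, RBP4, CRABP2, DHRS3, ALDH1A1, RARA, RARB, RARG and RXRA, were added as genes of the same pathway, and all 9 were found by Entrez Gene identifier.

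EndoC-βH1 is an established human beta-cell line from fetal pancreas, immortalised with a viral large T antigen driven by the insulin promoter and with telomerase, so every group comes from the same proliferating line. All cells were transfected, with AllStars negative control siRNA or with siRNAs that target the long noncoding RNA TUNAR. After 2 days they were exposed for 24 hours to 5 µM 1-AKP, the agent of the GSK3 inhibition arm, or to DMSO diluted 1:1000. Crossing both siRNA arms with both treatments gives 4 groups of 3 libraries; passage 74 supplied replicates 1 and 2, and passage 75 supplied the other. The labels do not say that replicates are separate cultures, so p-values measure the spread between these libraries, which may be technical. The growth protocol names albumin, nicotinamide, transferrin and selenite, and neither serum nor a retinoid.

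Retinol (vitamin A) reaches cells bound to RBP4 in plasma. Inside the cell LRAT esterifies retinol for storage, short-chain dehydrogenases such as DHRS3 interconvert retinol and retinal, and aldehyde dehydrogenases such as ALDH1A1 oxidise retinal to retinoic acid. CRABP2 carries retinoic acid to the nucleus, where the receptors RARA, RARB and RARG, paired with an RXR such as RXRA, switch target genes. RARB, DHRS3, CRABP2 and LRAT are themselves textbook retinoic acid targets in other cells.

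The libraries were alike in depth, with 15653786 to 15986834 expected counts each. TUNAR RNA checked the labels. With TUNAR siRNAs it was lower by 1.44 on the log2 scale in DMSO (17.3 to 6.37 CPM, counts scaled to library size). In 1-AKP it was lower by 1.53 (29.9 to 10.3 CPM), and the siRNA groups overlapped in neither treatment. Even so, edgeR's quasi-likelihood test with Benjamini-Hochberg adjustment over all genes gave adjusted p = 0.248 and 0.159. The exact two-sided permutation test cannot go below 0.1 with 3 libraries against 3. With replicate number as a block the adjusted p was 0.00248 and 0.000674. TUNAR was also higher with 1-AKP than with DMSO, by 0.79 with the negative siRNA (edgeR adjusted p = 0.0718, and 0.00198 with the block). With TUNAR siRNAs it was higher by 0.70 (edgeR adjusted p = 0.164, and 0.0274 with the block). Insulin marked the cells as beta cells in every library (INS, 20684 to 28891 FPKM, fragments scaled by gene length and library size). Replicate 1 stood apart in every group, with 7.35 to 11.6 chi-square per degree of freedom against the other 2 libraries, which differed from each other by 2.35 to 2.8.

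A promoter window of LRAT is shown because LRAT is the gene that stood out. LRAT (Entrez Gene 9227) lies at chr4:154740838-154753120 in RefSeq's GRCh38.p14 annotation, a newer build than the GRCh37/hg19 that the submitters' processing notes name. The RefSeq window read for LRAT runs from 250 bases before to 50 after a start site inside this span, not at its first base. A window at that first base was not read. The window, chr4:154743750-154744049 on the plus strand, reads as follows, with capitals on a CATAAAA run that starts 31 bases before its start site.

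LRAT: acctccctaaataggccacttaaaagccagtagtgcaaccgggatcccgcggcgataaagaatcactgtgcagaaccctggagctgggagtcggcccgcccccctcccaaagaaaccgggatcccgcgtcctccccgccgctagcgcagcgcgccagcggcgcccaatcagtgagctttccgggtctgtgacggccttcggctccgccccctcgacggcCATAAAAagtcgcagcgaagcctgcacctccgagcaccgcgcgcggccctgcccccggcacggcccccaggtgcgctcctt

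The run of letters was picked after the window had been read, and 1.91% of 35116 windows hold it on the gene's strand. The window has 67.33% G and C, against a median of 58.67% over all windows. It holds neither CTTTGA, the core matched by TCF/LEF factors of the beta-catenin pathway, nor the hexamers of retinoic acid receptor elements on either strand (searched as AGGTCA, then as AGTTCA, then as GGGTCA and last as GGTTCA). Of the 19 windows of the 9 genes, 4 hold CTTTGA (in ALDH1A1, RARB and RBP4), which 12.9% of all windows hold, and 8 hold a receptor hexamer (in CRABP2, DHRS3, RARA, RARB and RXRA), which 38.6% of all windows hold. A match here is a description of letters and not a site.

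RARB is shown beside it because it carries the best-known retinoic acid response element, a direct repeat of hexamers with 5 bases between them. A window of RARB, chr3:25428013-25428312 on the plus strand, holds such a repeat from 53 to 37 bases before the start, an arrangement found in 0.0883% of all windows. The stretch chr3:25428204-25428232 is printed with the hexamers in capitals.

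RARB: gggtagGGTTCAccgaaAGTTCActcgca

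No window of the 9 genes holds the repeats spaced by 2 or 1 bases, which 0.0399% and 0.131% of all windows hold.

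The 9 RNAs differed widely in level per length. ALDH1A1 was the most abundant at 332 ± 14.5 FPKM (SD over all 12 libraries), 134th of 21508 genes, and RXRA followed at 36.0 ± 2.62 FPKM and RBP4 at 9.05 ± 0.962 FPKM. RARA stood at 1.59 ± 0.237 FPKM, LRAT at 0.965 ± 0.500, DHRS3 at 0.905 ± 0.484, CRABP2 at 0.278 ± 0.136, RARG at 0.103 ± 0.0537 and RARB at 0.0483 ± 0.0349. The first 3 steps in this order were clear of the spread, each gene's lowest library lying above the next gene's highest; from RARA down neighbours overlapped. ALDH1A1 also varied least, with a coefficient of variation of 4.37%. RARB varied most (72.1%), then DHRS3 (53.4%), RARG (51.9%), LRAT (51.9%) and CRABP2 (49.0%), which are the genes of lowest level. The LRAT value takes in the rise with 1-AKP that it was chosen on.

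**Figure D1:**
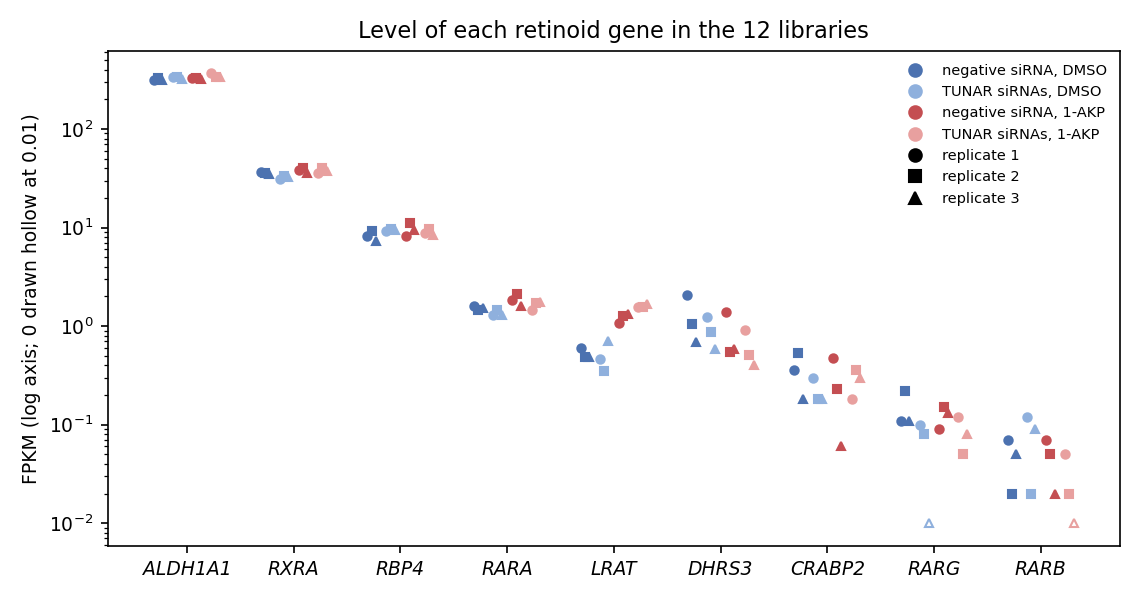
FPKM of the 9 genes (log axis) in each library, by group (colour) and replicate (symbol), ordered by mean level, with 0 drawn hollow at 0.01. ALDH1A1, RXRA and RBP4 form separate bands, LRAT separates the 1-AKP libraries from the DMSO libraries, and DHRS3 is highest in replicate 1 of every group.

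The storage enzyme LRAT went up with 1-AKP under either siRNA. In DMSO its level was 0.60, 0.49 and 0.49 FPKM with the negative siRNA and 0.46, 0.35 and 0.71 FPKM with TUNAR siRNAs (replicates 1, 2 and 3). In 1-AKP it was 1.07, 1.26 and 1.33 FPKM with the negative siRNA and 1.57, 1.58 and 1.67 FPKM with TUNAR siRNAs. All 6 libraries with 1-AKP lay above all 6 with DMSO. Those levels rest on 27.4 to 55.6 expected counts a library in DMSO and 81.9 to 131 in 1-AKP. The fitted difference was 1.24 (SE 0.209) on the log2 scale with the negative siRNA, a fold of 2.36, and 1.70 (SE 0.206) with TUNAR siRNAs, a fold of 3.24. These were the 28th and 18th highest of 15990 fitted values. Within a replicate number the ratio of 1-AKP to DMSO was 1.8, 2.55 and 2.86 with the negative siRNA and 3.54, 4.68 and 2.37 with TUNAR siRNAs, so 6 of 6 pairs were higher. In bulk RNA a change in the share of cells that hold LRAT and a change in the RNA per cell cannot be told apart.

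The siRNA comparisons of LRAT were not the ones used to choose it and were tested, although they share libraries with those that were. In DMSO the TUNAR siRNA libraries straddled the negative siRNA libraries, with a difference of -0.04 (SE 0.23, 95% interval -0.54 to 0.46, edgeR adjusted p = 1). In 1-AKP all 3 TUNAR siRNA libraries lay above all 3 negative siRNA libraries, 8.01 against 5.99 CPM on average. That difference was 0.42 (SE 0.187), with an unadjusted p of 0.0439, an edgeR adjusted p of 1 and an exact permutation p of 0.1, the smallest this design gives; with the replicate block the adjusted p was 0.128. The difference between siRNA effects is the same quantity as the difference between the LRAT rises with 1-AKP, which were used to choose it. Its value of 0.46 (SE 0.296) is therefore a description without a test. The larger LRAT fold with TUNAR siRNAs is not shown to be larger.

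**Figure D2:**
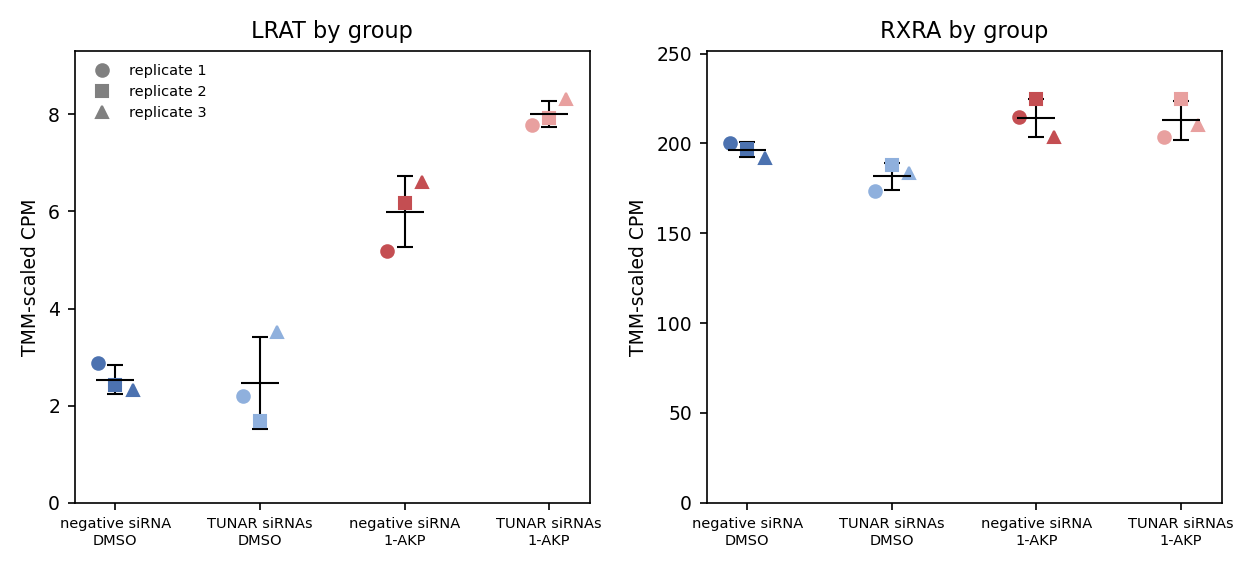
LRAT (left) and RXRA (right) in CPM scaled by TMM, by group, with points for the 3 libraries and bars for the mean and SD. LRAT averages 2.54, 2.47, 5.99 and 8.01 CPM across the groups from left to right, and RXRA 196.4, 181.7, 214.3 and 212.8 CPM.

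The other members were read from the same fit. In the comparison of 1-AKP with DMSO under the negative siRNA, 0 of the 5 other members tested passed the threshold of 0.05, where 7.3% of all 15990 genes did. Under TUNAR siRNAs 1 of 5 did, RXRA, where 7.51% of all genes did. In the siRNA comparisons 0 of 6 members passed, where 0.0125% of genes did in DMSO and 0% in 1-AKP (776 and 743 genes at an unadjusted p under 0.05, and 21 and 15 by DESeq2). In the test of the difference between siRNA effects 0 of the 5 members other than LRAT passed (0% of genes, 170 unadjusted, 0 by DESeq2). The replicate block called no member in the siRNA comparisons either, where it called 3.05% and 2.77% of genes. LRAT, RBP4, DHRS3, ALDH1A1, RARA and RXRA passed the filter on low counts with counts in every library; CRABP2, RARB and RARG did not.

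The receptor RXRA, the shared partner of the retinoic acid receptors, was modestly higher with 1-AKP. Its level was 36.33, 35.42 and 34.62 FPKM in DMSO with the negative siRNA and 38.35, 39.89 and 36.09 FPKM in 1-AKP. With TUNAR siRNAs it was 31.36, 33.67 and 32.90 FPKM in DMSO and 36.17, 39.76 and 37.37 FPKM in 1-AKP. The 1-AKP libraries lay above the DMSO libraries on the CPM scale under either siRNA. With the negative siRNA that gap was narrow (lowest 203.4 CPM against highest 200.4), and in FPKM the groups overlapped (36.09 against 36.33). How many of all genes separate this way was not counted. RXRA rose by 0.23 (SE 0.0516, edgeR adjusted p = 0.0189) with TUNAR siRNAs, a fold of 1.17, and the difference of 0.13 (SE 0.0515, adjusted p = 0.18) with the negative siRNA did not pass. The effects did not differ by test (0.10, SE 0.0729, adjusted p = 1). In DMSO RXRA averaged 181.7 CPM with TUNAR siRNAs against 196.4 with the negative siRNA, and in 1-AKP 212.8 against 214.3. The DMSO difference of -0.11 (SE 0.0516, edgeR unadjusted p = 0.0497, adjusted p = 0.0705 with the replicate block) did not pass. The RXRA call was lost, with adjusted p up to 0.0815, when replicate 1 or 3 of TUNAR siRNAs with DMSO, or replicate 2 or 3 of TUNAR siRNAs with 1-AKP, was left out, and in passage 74 alone (0.24, adjusted p = 0.207). With the replicate block RXRA passed with 1-AKP under both siRNAs (edgeR adjusted p = 0.00532 with the negative siRNA and 3.06e-06 with TUNAR siRNAs). The block called 26.8% and 27.1% of all genes in these comparisons.

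The other RXR genes were read beside RXRA. RXRB, the ubiquitous RXR, fell with 1-AKP by 0.30 (SE 0.0497, edgeR adjusted p = 0.00389) with the negative siRNA and by 0.22 (SE 0.0497, adjusted p = 0.0176) with TUNAR siRNAs. Its FPKM was 20.38 to 21.69 in the 6 DMSO libraries and 16.39 to 18.55 in the 6 with 1-AKP, which did not overlap. RXRB made up 33.2% and 33.9% of RXR FPKM in the DMSO groups and 26.3% and 26.8% in the 1-AKP groups, while RXRA made up 55.6% and 53.6%, then 59.5% and 58.4%. The third member, RXRG, made up 11.2% and 12.5%, then 14.2% and 14.8% (13.2% ± 4.07 over all libraries). The RXRA shares overlapped with the negative siRNA (52.8% to 59.0% in DMSO and 56.3% to 63.6% in 1-AKP), and the shares were not tested. RXRG was lowest in replicate 1 of all 4 groups (10.5 CPM on average, against 22.5 and 22.9 in replicates 2 and 3). The RXRB call with TUNAR siRNAs was lost without replicate 2 or 3 of either TUNAR siRNA group (adjusted p up to 0.0689), and both RXRB calls were lost in passage 74 alone.

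**Figure D3:**
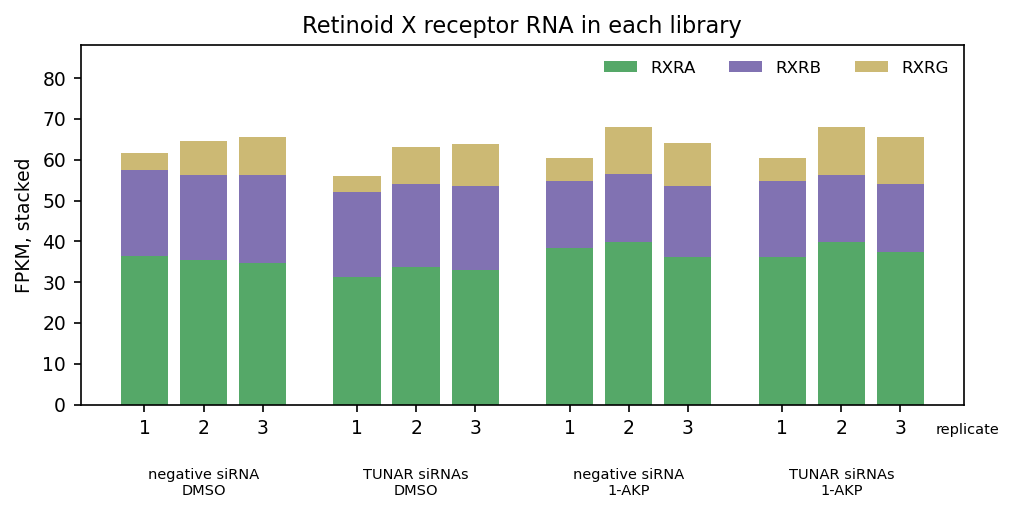
FPKM of RXRA, RXRB and RXRG stacked for each library, 3 replicates in each of the 4 groups. The RXRB part is 20.38 to 21.69 FPKM in DMSO and 16.39 to 18.55 FPKM in 1-AKP, and the RXRG part is smallest in replicate 1 of every group.

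Among the retinoic acid receptors RARA supplied nearly all the RNA, 91.2% ± 3.29 of summed RAR FPKM (lowest 85.6%, highest 96.1%). RARG gave 5.86% and RARB 2.90%. Its levels were 1.60, 1.46 and 1.51 FPKM in DMSO and 1.82, 2.14 and 1.59 FPKM in 1-AKP with the negative siRNA, and 1.31, 1.47 and 1.29 FPKM, then 1.46, 1.71 and 1.74 FPKM, with TUNAR siRNAs. RARA was higher with 1-AKP in all 3 replicate numbers under either siRNA, by 0.31 (SE 0.134, edgeR adjusted p = 0.199) and 0.27 (SE 0.137, adjusted p = 0.281), neither passing. RARB had 0 to 5 expected counts a library and RARG 0 to 10, too few for the fit. RARB, the receptor that carries the direct repeat printed above, had 6 expected counts over the 3 libraries of the negative siRNA in DMSO and 6 over those in 1-AKP, and 10 and 3 with TUNAR siRNAs. Summed RXR FPKM was 36.9 ± 4.43 times summed RAR FPKM.

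DHRS3, which reduces retinal back to retinol, was low and tied to the replicate number. It had 57, 29 and 19 expected counts in DMSO and 38, 15 and 16 in 1-AKP with the negative siRNA, and 34, 24 and 16, then 25, 14 and 11, with TUNAR siRNAs. Replicate 1 was the highest in all 4 groups, 2.43 CPM on average against 1.29 and 0.977 in replicates 2 and 3. Within a number DHRS3 was lower with 1-AKP in 6 of 6 pairs (ratios 0.524 to 0.856) and lower with TUNAR siRNAs in 6 of 6 (ratios 0.6 to 0.938). Such one-sided pairs were not particular to DHRS3. ALDH1A1 was higher in every pair of both kinds, and RXRA and RARA were higher in every pair with 1-AKP, while RBP4 was mixed in both kinds. The share of all genes that are one-sided in 6 of 6 pairs was not counted. None of the DHRS3 differences passed. Those with 1-AKP were -0.58 (SE 0.475, edgeR adjusted p = 0.556) and -0.54 (SE 0.519, adjusted p = 0.625). With the replicate block they were -0.58 (SE 0.245, adjusted p = 0.0785) and -0.55 (SE 0.273, adjusted p = 0.139). Those with TUNAR siRNAs were -0.50 and -0.45 (adjusted p = 1 for each, and 0.399 and 0.536 with the replicate block). Whether replicate 1's other differences, such as a CCNB1 level of 161 CPM against 96.9 and 105, play a part was not tested.

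**Figure D4:**
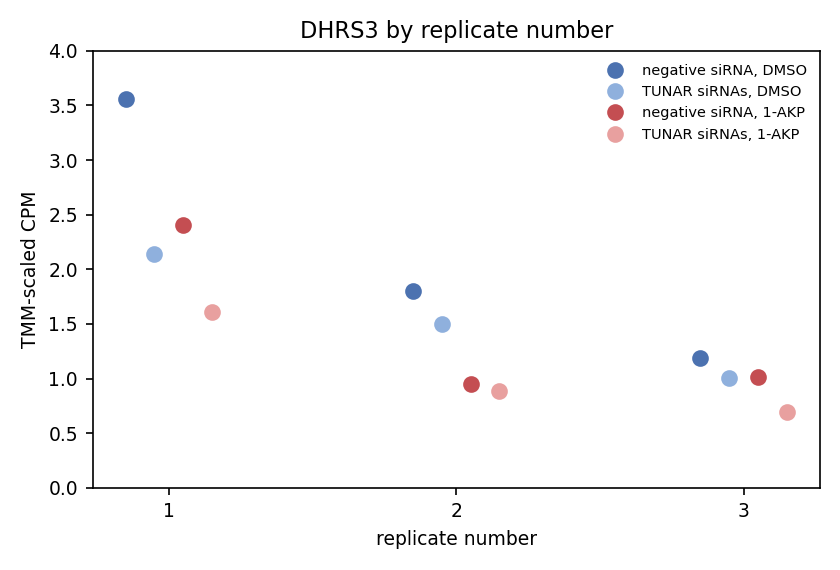
DHRS3 in CPM scaled by TMM, against replicate number, with 1 point per library and colour for the group. Replicate 1 averages 2.43 CPM against 1.29 and 0.977, and at each number the negative siRNA with DMSO is the highest of the 4 points.

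ALDH1A1, the main retinal dehydrogenase here, hardly varied: 310.91 to 332.75 FPKM with the negative siRNA in DMSO, 319.30 to 331.78 in 1-AKP, and 325.13 to 339.13, then 334.11 to 367.81, with TUNAR siRNAs. The fitted difference with 1-AKP was 0.05 (95% interval -0.04 to 0.15, edgeR adjusted p = 0.571) with the negative siRNA. With TUNAR siRNAs it was 0.07 (-0.03 to 0.17, adjusted p = 0.413). Between siRNAs the difference was 0.07 (SE 0.0451) in DMSO and 0.09 (SE 0.0451, edgeR unadjusted p = 0.0787) in 1-AKP, and neither passed. In 1-AKP the siRNA groups did not overlap (830.1 against 781.9 CPM on average, exact permutation p of 0.1). How many of all genes separate this way was not counted. RBP4, the plasma retinol carrier, was 7.27 to 9.21 FPKM in DMSO and 8.16 to 11.03 FPKM in 1-AKP with the negative siRNA. Its 1-AKP difference was 0.24 (SE 0.128, adjusted p = 0.324) there and -0.06 (SE 0.127, adjusted p = 0.857) with TUNAR siRNAs. CRABP2, which hands retinoic acid to the receptors, had 1 to 9 expected counts a library, too few for the fit.

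**Figure D5:**
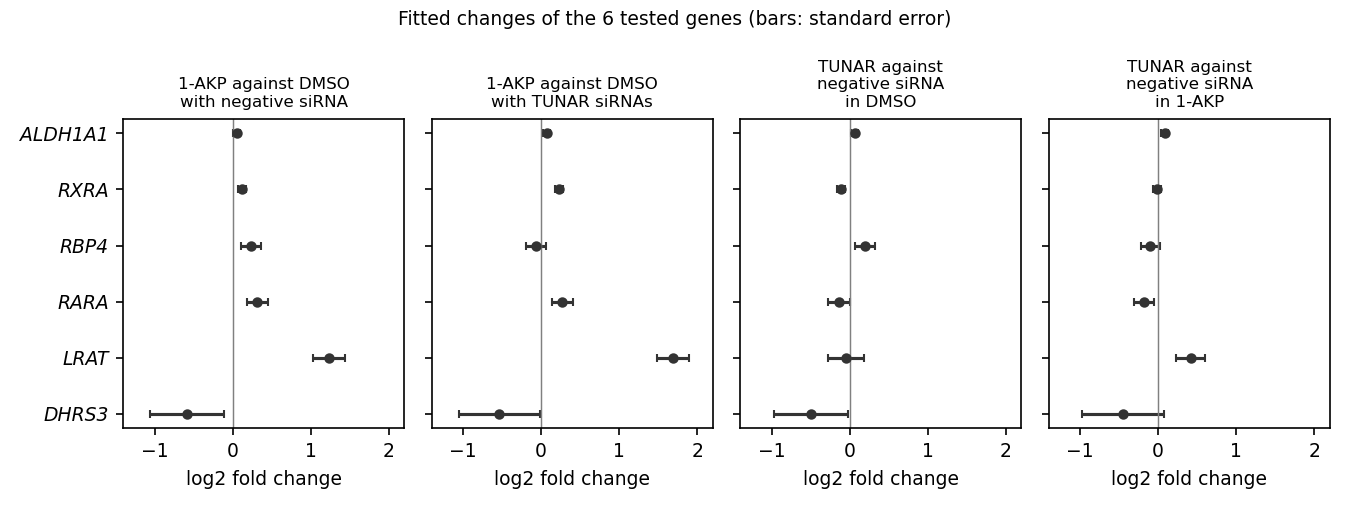
Fitted log2 fold changes of the 6 tested genes in 4 comparisons, with bars for the standard error of each estimate. LRAT with 1-AKP (1.24 and 1.70) is the largest value among them, was the reason for the choice of genes and carries no test; of the other 5 genes RXRA passed the threshold with TUNAR siRNAs (0.23).

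The wider pathway was read from 6 lists. Of their 81 genes (uptake and storage, retinol and retinal conversion, retinoic acid synthesis and clearance, carriers, receptors with coregulators, and target genes), 67 were in the files and 46 were tested. With 1-AKP under the negative siRNA 1 rose and 2 fell (6.52% called, where 3.54% of all genes rose and 3.76% fell), and under TUNAR siRNAs 1 rose and 3 fell (8.7% called, where 3.72% of all genes rose and 3.79% fell). With the replicate block 18 and 16 of 46 were called with 1-AKP, where 26.8% and 27.1% of all genes were. The siRNA comparisons called 0 of 46 without the block. With the replicate block, which called 3.05% and 2.77% of all genes there, 4 of 46 passed in each: AKR1C3 (adjusted p = 0.0167 and 0.0178, edgeR), the retinol dehydrogenase RDH10 (0.0112 and 0.0468) and NR2F2, an orphan nuclear receptor (0.0169 and 0.0147), were lower with TUNAR siRNAs, and MEIS2, a homeobox transcription factor, was higher (0.000706 and 0.00686). In uptake and storage 0 of 10 tested passed with 1-AKP without the block, including the retinol receptor STRA6 at 77.1 FPKM (0.17, edgeR adjusted p = 0.3, and 0.23, adjusted p = 0.147), the plasma transport partner TTR at 1410 FPKM and SCARB1 at 46.5 FPKM. With the block 2 rose and 2 fell under the negative siRNA, and 1 rose and 1 fell under TUNAR siRNAs. STRA6 and TTR then passed under both siRNAs and SCARB1 under the negative siRNA. In retinol and retinal conversion 0 of 9 passed without the block, among them RDH11 at 130 FPKM, AKR1C3 at 51.9 FPKM and ADH5 at 51.7 FPKM. With the block 2 fell under either siRNA, ADH5 among them. In synthesis and clearance 0 of 3 passed, with AOX1 at 0.511 FPKM, ALDH1A2 at 0.271 and ALDH8A1 at 0.268.

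The clearance enzymes had very few counts: CYP26A1, which degrades retinoic acid, had 1 expected count over the 12 libraries and CYP26B1 had 11. ALDH1A3 had 1. Of the carriers FABP5 was at 37.7 FPKM (0.19, edgeR adjusted p = 0.678, and 0.21, adjusted p = 0.632) and CRABP1 had 4 counts in all.

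Among receptors and coregulators 2 of 12 tested passed in each 1-AKP comparison, RXRB (above) and TNIP1, a repressive partner of nuclear receptors, and both fell. TNIP1 fell by 0.36 (SE 0.0642, edgeR adjusted p = 0.00576) with the negative siRNA and by 0.28 (SE 0.0642, adjusted p = 0.0215) with TUNAR siRNAs, from 50.3 to 39.1 CPM and from 48.6 to 40.1 CPM. NCOR1 and EP300 did not pass, at 24.9 and 15.7 FPKM. Of 14 target genes tested, the repressor ZNF703 rose by 0.33 (SE 0.0669, adjusted p = 0.0107) and 0.27 (SE 0.0661, adjusted p = 0.0265), from 30.6 to 38.5 CPM and from 34.8 to 42.0 CPM. PDK4, an inhibitor of pyruvate dehydrogenase, fell by 0.73 (SE 0.168, adjusted p = 0.0205) with TUNAR siRNAs, and its -0.46 with the negative siRNA (adjusted p = 0.136) did not pass. MEIS2 and TSHZ1, at 150 and 44.1 FPKM, did not pass.

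The calls of RXRB, TNIP1, ZNF703 and PDK4 were lost in passage 74 alone and on leaving out replicate 2 or 3 of every group (adjusted p up to 0.373), and those with TUNAR siRNAs also in a fit of only the 2 groups compared (adjusted p 0.0505 to 0.0872). With TUNAR siRNAs each of TNIP1, ZNF703 and PDK4 also lost its call without any of 4 single libraries: replicates 2 and 3 of 1-AKP in every case, with replicates 1 and 3 of DMSO for ZNF703 and PDK4 and replicates 1 and 2 for TNIP1 (adjusted p up to 0.0967). ZNF703 with the negative siRNA lost it without replicate 2 or 3 of 1-AKP (adjusted p up to 0.0574).

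The downstream genes of GSK3 inhibition and the markers of other cells were read beside LRAT. Of 9 beta-catenin target genes in the files 7 were tested and 0 passed in any comparison without the replicate block, where 7.3% and 7.51% of all genes passed with 1-AKP. With the block 1 of them, RNF43, was lower with 1-AKP under the negative siRNA. AXIN2, the feedback target of the pathway, was 2.36 ± 0.258 FPKM (SD, n = 3) in DMSO and 2.17 ± 0.200 in 1-AKP with the negative siRNA. LRAT is best known from hepatic stellate cells, so markers of such cells were read: 9 of 11 were in the files, 4 were tested and 0 passed. Their summed level was 1.98 to 3.2 FPKM across the 4 groups, with DCN at 0 to 1 count a library and ACTA2 at 0 to 3. Not all were that low: COL1A1 was at 1.9 to 6.5 CPM and RGS5 at 3.53 to 5.91 CPM, where LRAT itself was at 1.69 to 8.31 CPM. Beta-cell markers summed to 21360 to 29760 FPKM. Of those 12, 2 passed with 1-AKP under the negative siRNA and 1 under TUNAR siRNAs. With the replicate block 1 rose and 6 fell with 1-AKP under either siRNA, where the block called 26.8% and 27.1% of all genes. NKX6-1, a beta-cell transcription factor, fell by 0.52 (edgeR adjusted p = 0.00159) and 0.48 (adjusted p = 0.00254) with 1-AKP, and IAPP, the islet amyloid hormone, fell by 0.80 (adjusted p = 0.0494) with the negative siRNA and stood at -0.80 (adjusted p = 0.0529) with TUNAR siRNAs. INS itself differed by 0.03 and 0.02 (adjusted p = 0.95 and 0.961). G6PC2, a glucose-6-phosphatase of beta cells, had the highest values of the list, 2.43 (SE 0.937, adjusted p = 0.176) and 2.2 (SE 0.932, adjusted p = 0.213), without passing in the fit with no replicate block. Its lowest FPKM in each group, 2.12 and 2.39 in DMSO and 12.28 and 11.31 in 1-AKP, stood against highest values of 14.41 and 14.74, then 71.83 and 61.55. With the replicate block the SE of G6PC2 was 0.0549 and 0.0552, and it passed under both siRNAs (edgeR adjusted p = 7.11e-27 and 1.7e-25). The part of these genes in the LRAT difference was not tested. Markers of other islet cells (4 tested, summed level 19.6 to 66.98 FPKM), duct and acinar cells (3 tested, 49.49 to 65.77 FPKM), endothelial and blood cells (4 tested, 23.14 to 38.27 FPKM) and the G2/M phase (10 tested, 412.5 to 672.8 FPKM) had 0 calls in any comparison without the replicate block. With the block the 1-AKP comparisons had calls in these lists too. Under the negative siRNA 1 duct and acinar marker fell, 1 endothelial and blood marker rose, and in G2/M 1 rose and 1 fell. Under TUNAR siRNAs 1 other islet marker and 2 duct and acinar markers fell. There 1 endothelial and blood marker rose, and in G2/M 1 rose and 3 fell. The block called 26.8% and 27.1% of all genes with 1-AKP. In the siRNA comparisons, where it called 3.05% and 2.77% of genes, it called further markers. IAPP, PDX1 and NKX6-1 were lower with TUNAR siRNAs in DMSO and in 1-AKP (edgeR adjusted p up to 0.019), and so was CD68 (0.00164 and 0.00145), while MKI67 was higher in both (0.0051 and 0.00278) and TOP2A (0.0439) and KRT19 (0.00524) in DMSO.

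Across the 12 libraries the members followed LRAT to very different degrees. Pearson's r of log2 CPM with LRAT was 0.76 for RXRA, 0.58 for RARA, 0.44 for ALDH1A1, 0.23 for RBP4 and -0.50 for DHRS3, as a description over points that share treatment, siRNA and replicate number. Without replicate 1 these were 0.79, 0.63, 0.35, 0.29 and -0.85, and within groups, as deviations from group means, they were -0.05, -0.25, -0.41, 0.11 and -0.27. The genes most like LRAT, out of 13761 compared, were CALU, an endoplasmic reticulum calcium-binding protein (r = 0.96), MTFR1L (0.95), the zinc transporter SLC39A7 (0.95), MRFAP1 (0.95), DSEL (0.95) and ASCC2 (0.94). This r includes the 1-AKP rise that LRAT was chosen on and leaves out size. With 1-AKP these genes rose by 0.095 to 0.31 with the negative siRNA and 0.11 to 0.39 with TUNAR siRNAs, against 1.24 and 1.70 for LRAT. MTFR1L passed in neither comparison and ASCC2 only with TUNAR siRNAs. Most unlike were the deubiquitinase CYLD (-0.96), the ubiquitin ligase subunit RMND5A (-0.96) and the incretin receptor GIPR (-0.95). There were 90 genes at or above 0.9 and 139 at or below -0.9. By Spearman's rho, ranked over all genes tested and not only these 13761, CALU was 109th and MTFR1L 2nd, so the order among close neighbours is loose.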

How the data were processed

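Polyadenylated RNA of 12 libraries was sequenced; the labels state no strand marking, so sense and antisense reads cannot be told apart. The authors deposited, per the file headers, expected counts (estimated read counts, not normalised), FPKM (counts scaled by gene length and library total) and a gene length in bases, a column of another unit. The submitters' processing notes name RSEM, Bowtie, BWA, GRCh37 and hg19, without versions. Unlisted genes were set to 0. Of 21508 identifiers 21386 matched a symbol.

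Expected counts were rounded, filtered (edgeR filterByExpr, minimum count 10, minimum total 15, which left 15990 genes) and scaled by TMM. edgeR 4.0.16 under R 4.3.3 fitted 4 group means (glmQLFit, robust; 8 residual degrees of freedom, biological coefficient of variation 8.74%). Each of 5 contrasts was tested with glmQLFTest and Benjamini-Hochberg adjustment over all genes, threshold 0.05. The fit was tested on simulated data. Alternatives used DESeq2 1.42.0 and limma 3.58.1. Library pairs within groups differed by 2.35 to 11.6 chi-square per degree of freedom, so none was counted as a copy.

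Same-numbered libraries correlated, in deviations from group means, at 0.376, 0.178 and 0.217 in the siRNA comparison in DMSO and 0.416, 0.162 and 0.286 in 1-AKP. All lay above the minimum of 0.1, so the replicate block is given beside those. In the 1-AKP comparisons 1 of 3 lay below 0.1 (0.0871 and 0.0634), so the block is an alternative there. The block lowered the biological coefficient of variation from 8.74% to 2.86%, so calls with 1-AKP depend on this choice.

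Members, lists and named genes were chosen with earlier results of these data known. Named genes are the 9 members, TUNAR, AXIN2, per pathway list up to 4 called genes with the lowest p and 3 uncalled with the highest FPKM, and the 6 highest and 3 lowest in r with LRAT. Other genes named (RXRG, CYP26A1, CYP26B1, ALDH1A3, INS, IAPP, NKX6-1, G6PC2, PDX1, CD68, MKI67, TOP2A, KRT19, RDH10, NR2F2, DCN, ACTA2, COL1A1, RGS5, CCNB1 and neighbours of members) were chosen after their values were seen. A pathway gene that this naming rule would include is not reported here. Promoters come from RefSeq GRCh38.p14.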

Additional observations from a re-analysis of the deposited data

How the results depend on the processing

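Without the replicate block the RXRA call rests on few libraries, and with it RXRA passed with 1-AKP under both siRNAs. LRAT and DHRS3 were measured with low counts. Genes called in the 1-AKP comparisons (1168 with the negative siRNA and 1201 with TUNAR siRNAs) became 4285 and 4335 with the replicate block (26.8% and 27.1% of genes tested), 51 and 67 in passage 74 alone and 777 and 447 with only the 2 groups compared; with library size alone as scaling the split was 414 higher and 702 lower in place of 566 and 602, and 495 and 690 in place of 595 and 606. Leaving out replicates or libraries gave 29 to 2559 and 24 to 2769, the lowest without replicate 2 and the highest without replicate 1. The siRNA comparisons (2 genes in DMSO and 0 in 1-AKP) gave 488 and 443 with the replicate block, 21 and 15 by DESeq2 and 0 to 45 each on leaving out libraries; in DMSO they gave 1 by limma with either pseudocount and 0 in passage 74 alone or with only the 2 groups, and in 1-AKP 1 without the filter. Members called with 1-AKP, LRAT apart, became 1 with the block under the negative siRNA (RXRA, adjusted p = 0.00532, edgeR), and under TUNAR siRNAs 0 in passage 74 alone or with only the 2 groups and 0 to 1 on leaving out libraries. The block changed no other member's call. With 1-AKP it called 18 and 16 of the 46 pathway genes, adding STRA6 (adjusted p = 0.000119 and 1.41e-06, edgeR), TTR (0.00107 and 0.00102), RXRG (0.000627 and 0.000879), ADH5, FABP5, EP300, MEIS2 and TSHZ1 under both siRNAs and PDK4 (0.0388) and SCARB1 (0.00414) under the negative siRNA, and, outside the pathway, G6PC2 (7.11e-27 and 1.7e-25) and RNF43 of the beta-catenin targets (0.0218, negative siRNA). On log2(FPKM + 1) the LRAT differences were 0.54 and 0.80, a scale that understates low genes, and without replicate 1 the first was 1.43. Every reversal was of an uncalled difference when a replicate or library was left out. Over the alternatives LRAT ran from -0.44 to 0.17 and DHRS3 from -0.80 to 0.0535 with TUNAR siRNAs in DMSO; DHRS3 ran from -0.87 to 0.12, RBP4 from -0.20 to 0.0212 and RXRA from -0.0485 to 0.0286 in 1-AKP; and the difference between siRNA effects ran from -0.50 to 0.61 for DHRS3, -0.22 to 0.13 for RARA and -0.0254 to 0.0395 for ALDH1A1. The cause of these changes was not tested.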

Other observations

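The genes beside LRAT were nearly silent in these cells. In RefSeq's order (GRCh38.p14) LRAT lies between FGG, a fibrinogen chain with 3 expected counts over the 12 libraries, and RBM46 with 8; the next gene after RBM46, NPY2R, had 0. FGA, the one neighbour within 2 places on either side that was tested, had 180 counts and differences with 1-AKP of 0.27 (edgeR adjusted p = 0.759) and -0.62 (adjusted p = 0.4). Over all 9 genes 36 such neighbours were looked up, which was decided with the values in view, and 23 were tested. With 1-AKP 0 rose and 4 fell under either siRNA (17.4%, against 7.3% and 7.51% of all genes). These were NR1D2 and TOP2B beside RARB, at -0.74 and -0.35 with the negative siRNA (edgeR adjusted p = 0.000123 and 0.000278), ZNF740 beside RARG at -0.53 (adjusted p = 0.000304) and BRD3 beside RXRA at -0.47 (adjusted p = 0.0125).

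The deposited length of LRAT, which moves with the estimated mix of its 2 transcripts, was 4735 to 4929 bases with either siRNA in DMSO, 4793 to 4873 with the negative siRNA in 1-AKP and 4895 to 4929 with TUNAR siRNAs in 1-AKP. The DMSO libraries alone span the whole range, so each 1-AKP group overlaps its DMSO group. The 1-AKP groups did not overlap each other, and how many other genes show such a gap was not counted.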
